A study of Mus musculus with 15 samples.

Results

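Tumour cells carrying a hairpin against GFP, selected with puromycin, were compared with the same cells carrying a hairpin against LacZ and left unselected. Short hairpin RNAs are processed by the cell into small RNAs that silence matching transcripts. Mouse cells carry neither GFP nor LacZ, so both hairpins serve as controls for the delivery of virus and the use of the silencing machinery. Members were chosen by their labels alone, as the arrays labelled shGFP or shLacZ, which gave 7 of the 15 arrays of the study, 3 with shGFP and 4 with shLacZ. The other 8 arrays carry hairpins against Siva, a p53 target gene whose role in tumour growth the study addresses, and were not used here. The cells were LSZ2 and LSZ4, mouse lines of non-small cell lung cancer. LSZ2 had 1 array with shGFP and 2 with shLacZ, and LSZ4 had 2 of each. Cells with shGFP carried the pLKO.1 vector and were kept for 3 days in puromycin, which the labels give as 2 ug/ul, and cells with shLacZ carried a vector that the labels call LL37 and received none. All were harvested 2 days after plating at subconfluent density. The hairpin, the vector and the selection therefore changed together and cannot be told apart. All 7 arrays lay on 1 slide, the shGFP arrays in its row 1 and the shLacZ arrays in its row 2, so that row cannot be told apart from the hairpin either.

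Puromycin resembles the end of a charged transfer RNA, enters the ribosome and ends growing protein chains early, and cells with a resistance gene inactivate it. Cells without such a gene die, and the transporters encoded by Abcb1a and Abcb1b pump many drugs out of cells. Double-stranded RNA and viral delivery can set off the interferon response through sensors such as the kinase Eif2ak2. Genes of translation stress, protein quality control, drug efflux, p53 and interferon were therefore among the lists examined.

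Each level is the log2 of the processed Cy3 signal less the log2 of the 75th percentile of its array, so that 0 is the level of that percentile and negative levels lie below it. The signal at that percentile was lowest at 425 and highest at 1029 intensity units. The scanner software called 49.0% to 58.9% of spots on an array well above their background and 0 spots saturated. A difference is shGFP minus shLacZ with the line as a term in the fit. The epithelial keratin gene Krt8 read 8.46 to 9.73 and the adhesion gene Cdh1 4.0 to 4.77 over the 7 arrays, each well above background on 7 of 7. The epithelial adhesion gene Epcam was lower, at -4.64 to -0.99, and well above background on 6 arrays. The lung marker genes Nkx2-1 and Sftpc did not pass the filter, which asked for a signal well above background on at least 3 arrays. The surfactant gene Sftpd read -4.04 to -3.20. Of 26 immune marker genes 10 passed the filter, and of 25 endothelial and fibroblast markers 8 did. The leukocyte gene Ptprc was well above background on 3 arrays at -5.41 to -4.52. Other markers of these cell types read higher and were well above background on 7 of 7 arrays. Among immune markers Csf1r read 0.09 to 1.63 and Cd4 1.04 to 2.06. Among endothelial and fibroblast markers Kdr read 1.94 to 3.58 and Fbln2 6.66 to 7.63, and the endothelial gene Pecam1 read -3.07 to -2.07.

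One array stood apart from the others, the shLacZ replicate 1 of LSZ4. It differed from its own replicate by more than 1 on the log2 scale at 16.7% of genes, against 2.44% between the shGFP replicates of LSZ4 and 1.86% between the shLacZ replicates of LSZ2. Against the shGFP arrays of LSZ4 it differed that far at 38.2% and 45.8% of genes, whereas shLacZ replicate 2 did so at 2.91% and 2.93%. In LSZ2, where no array stood apart, shGFP and shLacZ differed that far at 1.04% and 2.34% of genes, which brackets the 1.86% between shLacZ replicates there. Most counts and list values below are therefore given with and without that array. Single genes are given both ways wherever leaving it out moved the difference by over 1.5 times.

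**Figure D1:**
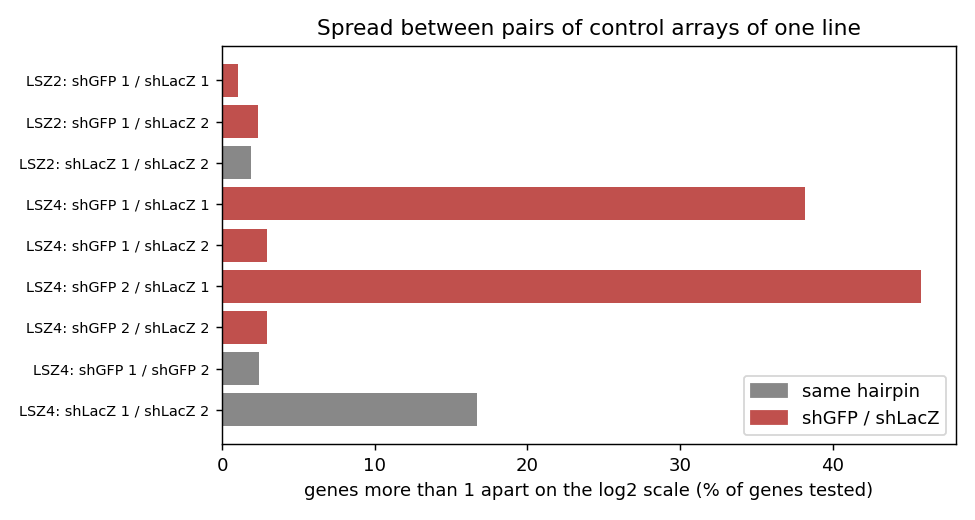
Percent of genes tested that lay more than 1 apart on the log2 scale between each pair of control arrays of 1 line, with pairs of the same hairpin in grey and pairs of shGFP and shLacZ in red. The pairs that include LSZ4 shLacZ replicate 1 reach 16.7%, 38.2% and 45.8%, and the other 6 pairs lie between 1.04% and 2.93%.

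Between the hairpins 0 of 21764 genes, or 0.0%, passed the test (limma with Benjamini-Hochberg adjustment over all genes, lowest adjusted p = 0.466). At an unadjusted p under 0.05 there were 378 higher genes (1.74%) and 389 lower ones (1.79%), 767 in all. The median difference of all genes was 0.22, and 0.05 without LSZ4 shLacZ replicate 1. The fit left the difference of a typical gene uncertain by 0.59 either way (median half-width of the 95% interval). For 12862 genes (59.1%) the interval lay wholly within 1 of no difference, which is 2-fold. For the others the interval reached past 2-fold, and 200 genes had a fitted difference of at least 1, 44 of them higher and 156 lower.

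A second, untested description counts the genes whose shGFP arrays lay on one side of the shLacZ arrays in both lines. With shGFP 1881 genes (8.64%) were higher in this way and 1394 (6.41%) lower. Without LSZ4 shLacZ replicate 1 the counts were 2089 (9.6%) and 2108 (9.69%). The genes named next were taken from this set by the smallest unadjusted p, and none of them passed the adjusted test.

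The 12 named genes lower with shGFP had varied roles. Thbs1 encodes thrombospondin 1, a matrix glycoprotein that restrains blood vessel growth, and its probe lies on chromosome 2 between 117952585 and 117952644 (mm9). In LSZ2 the Thbs1 level was -2.33 with shGFP and -1.21 and -1.11 with shLacZ, and in LSZ4 it was -4.82 and -4.50 with shGFP and -3.05 and -3.32 with shLacZ. The shGFP arrays were the low ones in both lines without overlap, by -1.35 on the log2 scale (SE 0.24, 95% interval -1.89 to -0.82, limma adjusted p = 0.466). Only 1 of the 3 shGFP arrays was well above background for Thbs1. Without LSZ4 shLacZ replicate 1 the difference was -1.25 (adjusted p = 0.0540).

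Vcam1, an adhesion molecule that leukocytes bind and a target of NF-kB, was measured on every array. In LSZ2 its level was 0.24 with shGFP and 1.12 and 1.24 with shLacZ, and in LSZ4 0.48 and 0.29 with shGFP and 1.5 and 1.16 with shLacZ. The difference was -0.94 (SE 0.19, 95% interval -1.36 to -0.52, limma adjusted p = 0.466), and it was -0.94 within each line taken alone. The other Vcam1 probe that passed the filter gave -0.76. Without LSZ4 shLacZ replicate 1 the Vcam1 difference was -0.86 (adjusted p = 0.0540).

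Trak2, which links mitochondria to the motors that carry them along microtubules, read -0.51 with shGFP in LSZ2 against 0.27 on both shLacZ arrays. In LSZ4 it read -0.62 and -0.96 with shGFP and 0.43 and 0.22 with shLacZ. The difference was -0.98 (SE 0.20, 95% interval -1.42 to -0.54, limma adjusted p = 0.466), and -0.90 (adjusted p = 0.058) without the array that stood apart. Tcf4, a basic helix-loop-helix transcription factor gene, differed by -0.77, from 0.91 and 0.72 with shLacZ to 0.20 with shGFP in LSZ2 and from 0.56 and 0.14 to -0.52 and -0.53 in LSZ4.

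Cp, which encodes the copper-carrying ferroxidase ceruloplasmin, read -2.20 with shGFP in LSZ2 against -0.58 and -0.80 with shLacZ. In LSZ4 Cp was -5.01 and -4.27 with shGFP and -2.40 and -4.02 with shLacZ, so that the lower shLacZ array came close to the shGFP arrays. Its difference was -1.46 (SE 0.38) and -1.06 without LSZ4 shLacZ replicate 1. Cyp1b1, a cytochrome P450 that oxidises hydrocarbons and steroids, differed by -1.43 (SE 0.39), and both Cp and Cyp1b1 were well above background on 1 of 3 shGFP arrays. Il18, a cytokine of the interleukin 1 family that was well above background on 2 of 3 shGFP arrays, differed by -0.89, Galnt3, which starts mucin-type sugar chains, by -0.93, and Ehf, an epithelial ETS factor, by -0.76. Dtwd2 (-1.02, well above background on 1 of 3 shGFP arrays), the collagen-folding enzyme gene Fkbp14 (-0.77) and the lipid kinase gene Pip4k2a (-0.66) made up the 12.

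Of the 12 genes higher with shGFP, 8 read below 0 on every array. S100b, a calcium-binding protein gene, read -2.86 with shGFP in LSZ2 against -4.01 and -3.73 with shLacZ, and in LSZ4 -2.68 and -3.02 against -4.03 and -3.51. All 7 arrays measured it, the hairpins did not overlap in either line, and the difference was 0.95 (SE 0.27, 95% interval 0.36 to 1.55, limma adjusted p = 0.466). Col6a1, a chain of collagen VI, read 2.03 with shGFP in LSZ2 against 1.52 and 1.88, and in LSZ4 3.14 and 3.20 against 1.63 and 2.35. Its difference of 0.84 (SE 0.26) was 1.18 in LSZ4 and 0.33 in LSZ2, and 0.57 without LSZ4 shLacZ replicate 1.

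Ltc4s, the enzyme that makes leukotriene C4, differed by 0.77, Slurp1, a secreted peptide of the Ly6 family, by 0.90, and Alpi, an intestinal alkaline phosphatase, by 0.81. For these 3 the LSZ2 difference was 0.46, 0.19 and 0.32, and the LSZ4 difference 0.98, 1.37 and 1.13. They read 0.53, 0.59 and 0.55 without LSZ4 shLacZ replicate 1. Ascl3, a transcription factor gene, was well above background on all 3 shGFP arrays and on none of the 4 shLacZ arrays. So it passed the filter through its shGFP arrays alone. It was at least 1.58-fold higher with shGFP, taking for each shLacZ array the higher of its own value and the lowest signal well above background on it. The rest were the oxidase subunit gene Cox6a2 (0.90), Layn (0.92), the ectodysplasin gene Eda (0.85), which were well above background on 3, 1 and 2 of 4 shLacZ arrays, Psapl1 (0.83), the sterol-binding protein gene Osbpl10 (0.77) and Wdtc1 (0.65).

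**Figure D2:**
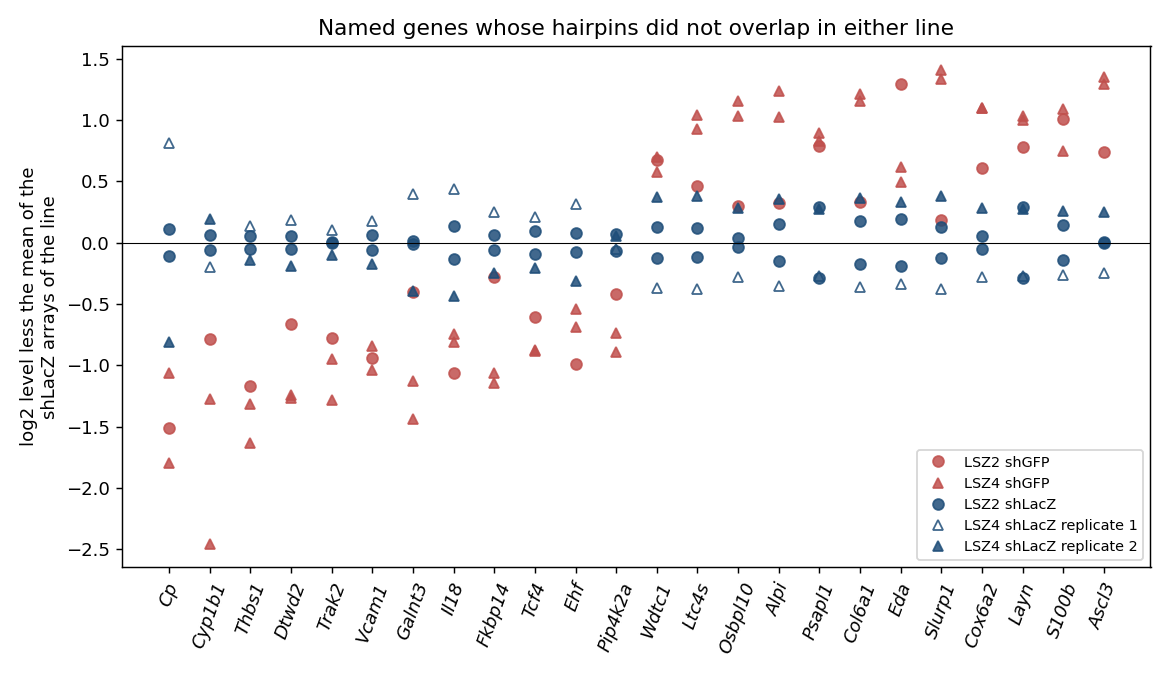
Level of the 24 named genes on each array, on the log2 scale, less the mean of the shLacZ arrays of the same line, with circles for LSZ2, triangles for LSZ4, red for shGFP, blue for shLacZ and an open triangle for LSZ4 shLacZ replicate 1. In LSZ2 and in LSZ4 the red points lie outside the blue ones of their line for each gene, because the genes were chosen that way, and the open triangle is the blue point farthest from the red ones of LSZ4 for most genes.

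Without LSZ4 shLacZ replicate 1 limma called 6 features, 1 higher and 5 lower with shGFP, and none of the 6 has an ordinary gene symbol. Of these, 3 are probes for long intergenic noncoding RNA regions, which the array design names by their mm9 position, all on the forward strand. None of the 3 was well above background on any shGFP array. The 60-base probes of these 3 regions are printed below, with that of a further region on chromosome 19 that differed in LSZ2. Whether they also bind other transcripts was not tested.
chr6:30983012-31009987_F: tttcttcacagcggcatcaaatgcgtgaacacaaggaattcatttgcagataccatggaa
chr12:21380896-21387071_F: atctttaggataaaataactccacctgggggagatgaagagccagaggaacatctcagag
chr15:74476233-74476296_F: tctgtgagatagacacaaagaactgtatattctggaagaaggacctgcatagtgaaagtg
chr19:38392796-38398771_F: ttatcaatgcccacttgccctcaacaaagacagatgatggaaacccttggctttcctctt
No part is capitalised because no motif was searched. Among the probes of 10 features, these and the others named in the next paragraphs, the longest run of bases shared by any pair, on either strand, was 9.

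The chromosome 6 probe lies between 31001328 and 31001387. It read -7.03 with shGFP in LSZ2 against -3.59 and -2.62 with shLacZ, and -6.70 and -6.72 with shGFP in LSZ4 against -7.32 and -3.20 with shLacZ. The array at -7.32 was LSZ4 shLacZ replicate 1, which read like the shGFP arrays here and not like the other 3 shLacZ arrays. Since no shGFP array was well above background, only a bound can be given, at least 3.47-fold lower with shGFP without that array (limma adjusted p = 0.000731) and at least 1.68-fold lower with it (adjusted p = 0.466). The probe passed the filter through its 3 bright shLacZ arrays alone.

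At both other regions LSZ4 shLacZ replicate 1 again read below the shGFP arrays of LSZ4, and farther below them at chromosome 12. The other 3 shLacZ arrays again read above every shGFP array. The chromosome 15 probe (74476237 to 74476296) read -7.79, -6.67 and -6.69 on the shGFP arrays, -3.59, -2.00 and -3.47 on the other 3 shLacZ arrays, and -7.29 on LSZ4 shLacZ replicate 1. The chromosome 12 probe (21381219 to 21381278) read -6.48, -5.48 and -5.07 with shGFP, -3.94, -2.52 and -2.37 on those 3 shLacZ arrays, and -7.29 on LSZ4 shLacZ replicate 1. At each of these 3 probes the signal was well above background on 3 of 4 shLacZ arrays and on none of 3 shGFP arrays. Each thus passed the filter through its shLacZ arrays alone. Over all 4 shLacZ arrays the chromosome 15 and 12 probes were at least 1.80-fold and 1.87-fold lower with shGFP, and without LSZ4 shLacZ replicate 1 at least 3.77-fold and 3.97-fold lower. The chromosome 12 region has a second probe that passed the filter, and over all 7 arrays it gave a difference of -0.19, against -1.57 for the probe printed above.

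The transcript ENSMUST00000092966 (chromosome 17, 6813470 to 6813529) was at -4.62, -5.39 and -5.35 with shGFP and at -2.04, -2.01 and -1.58 on those 3 shLacZ arrays, with LSZ4 shLacZ replicate 1 between them at -3.96, and 1 of 3 shGFP arrays was well above background for it. The transcript ENSMUST00000125538 (chromosome 11, 66925963 to 66926022) was lower with shGFP on every array including that one, at -3.95, -3.06 and -3.1 against -1.94, -1.81, -2.20 and -1.67. The probe A_55_P2069719 (chromosome 5, 88493397 to 88493456) was the higher feature, well above background on 3 of 3 shGFP arrays and on none of 4 shLacZ arrays. It was at least 3.80-fold higher with shGFP without LSZ4 shLacZ replicate 1, and at least 3.87-fold over all 7 arrays (limma adjusted p = 0.466). This probe passed the filter through its 3 shGFP arrays alone.

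Within LSZ4 limma called 3 of 21764 genes (0.0138%), all unnamed features, each at adjusted p = 0.0494. ENSMUST00000051831 was well above background on none of the shLacZ arrays and at least 9.66-fold higher with shGFP. It passed the filter through its shGFP arrays alone. ENSMUST00000143551 was well above background on neither LSZ4 shGFP array and at least 4.32-fold lower, and A_55_P2082880, measured on all 4 LSZ4 arrays, was lower by 3.49 on the log2 scale. Leaving out the array that stood apart cannot show whether this count depends on it, because the spread of the fit then changed too. With all arrays kept, the LSZ4 count was 14 under median scaling and 0 under quantile scaling. With either LSZ4 shLacZ array left out, 1 array remained in its group. The fit then used in effect 1 pooled spread for all genes, with 43524 degrees of freedom against 10.9 in the main fit. The higher counts of those fits are therefore not read as hairpin differences. The median difference of all genes in LSZ4 was 0.39 with both shLacZ arrays, 0.11 against replicate 2 alone and 0.67 against replicate 1 alone.

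Within LSZ2 limma called 1 of 21756 genes (0.0046%), the chromosome 19 region, with a lone shGFP array assumed to vary like the other groups. Its probe (38397570 to 38397629) read 2.46 with shGFP in LSZ2 against -4.24 and -4.0 with shLacZ, a difference of 6.58 (limma adjusted p = 0.000576 with a borrowed spread). In LSZ4 it read -3.06 and -2.93 with shGFP and -4.25 and -3.19 with shLacZ, a difference of 0.73. The value of LSZ2 rests on 1 array, and the test cannot tell the hairpin apart from that array. The difference between the lines passed for the same probe and for no other (1 of 21756, 0.0046%, adjusted p = 0.0248). The median difference of all genes in LSZ2 was -0.03. The counts of calls in LSZ2 and between the lines rose with either LSZ4 shLacZ array left out. Those fits used 1 pooled spread for all genes, so their counts are not read as hairpin differences. Without LSZ2 shGFP neither comparison could be fitted.

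Of the fixed genes given here for puromycin, p53 and the hairpin response, Abcg2 alone lay on the same side of shLacZ in both lines without overlap. Abcb1b read 3.56 with shGFP in LSZ2 and 3.41 and 3.46 with shLacZ, and in LSZ4 2.10 and 2.28 with shGFP and 3.1 and 2.97 with shLacZ. So it was highest with shGFP in LSZ2 and lowest with shGFP in LSZ4. Its difference was -0.46 (SE 0.24, 95% interval -0.99 to 0.07, limma adjusted p = 0.466). Abcb1a read 0.38 and 0.21 with shGFP in LSZ4 against 2.05 and 0.49, and its difference moved from -0.54 to -0.04 without LSZ4 shLacZ replicate 1. Abcg2, another efflux pump gene, was lower without overlap in both lines, although its LSZ2 difference was only -0.03 and its overall difference moved from -0.65 to -0.35 without that array.

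Siva1, which no hairpin here targets, read 5.30 with shGFP in LSZ2 against 5.27 and 5.58 with shLacZ, and in LSZ4 6.48 and 6.49 against 5.27 and 6.0. Its difference was 0.46 (95% interval -0.16 to 1.08), and 0.18 without LSZ4 shLacZ replicate 1. Trp53, which encodes p53, differed by 0.36 (95% interval -0.25 to 0.97), its target Cdkn1a, a cell cycle inhibitor, by 0.48 (-0.08 to 1.04), and Mdm2, the ligase that degrades p53, by -0.48 (-1.01 to 0.05). Without LSZ4 shLacZ replicate 1 these 3 read 0.04, 0.22 and -0.32. With the trend on probe base composition also removed Trp53 read -0.06, so its direction was not settled.

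Eif2ak2, the kinase that senses double-stranded RNA, read 0.89 with shGFP in LSZ2 against 0.89 and 0.51 with shLacZ, and in LSZ4 -1.57 and -1.75 against 0.53 and -1.15. Its difference was -0.73 (95% interval -1.69 to 0.22), and -0.16 without LSZ4 shLacZ replicate 1, the array that held the 0.53. Isg15, an interferon-induced ubiquitin-like protein gene, differed by 0.14 (95% interval -0.32 to 0.59), by 0.05 without that array, and by -0.19 once the trend on base composition was removed.

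Atf4, the transcription factor that leads the response to amino acid shortage and stalled translation, differed by 0.44 (95% interval -0.18 to 1.07) and its target Ddit3 by 0.29 (-0.19 to 0.78). They read 0.20 and 0.15 without LSZ4 shLacZ replicate 1. The ATF4 targets Chac1, which breaks down glutathione, and Gdf15, a secreted stress signal, each differed by 0.74. For Chac1 the difference was 1.16 in LSZ4 and 0.11 in LSZ2, and for Gdf15 1.22 and 0.02. The elongation factor gene Eef2 differed by 0.48 (-0.14 to 1.09), and Myc by 0.20 (-0.28 to 0.68), and without that array they read 0.22 and 0.04.

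Lists of genes by function were described by their counts and medians, and none of the 995 measured genes on 33 lists passed the adjusted test. Of those 995 genes, 35 were higher without overlap in both lines and 72 lower, beside 1881 (8.64%) and 1394 (6.41%) of all 21764 genes. Of 25 genes of cholesterol synthesis, 7 (28.0%) were lower without overlap and 1 higher. Without LSZ4 shLacZ replicate 1, 8 were lower and 1 higher, beside 9.69% and 9.6% of all genes. Hmgcs1, which makes the precursor HMG-CoA, read 4.73 with shGFP in LSZ2 against 5.13 and 5.12 with shLacZ, and in LSZ4 4.03 and 4.0 against 5.38 and 4.59. It differed by -0.74 (SE 0.25), and the later enzyme gene Msmo1 by -0.46, or -0.48 and -0.35 without that array. The median of the list, 0.21, was nevertheless close to the 0.22 of all genes.

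Of 25 NF-kB targets 5 (20.0%) were lower without overlap and none higher, beside 6.41% and 8.64% of all genes. Without LSZ4 shLacZ replicate 1, 6 were lower and none higher, beside 9.69% and 9.6% of all genes. The 5 were as follows. Besides Vcam1 these were the chemokine genes Ccl2 (-0.43) and Ccl7 (-0.35), the apoptosis inhibitor Birc3 (-0.39) and Tnfaip3 (-0.24), which shuts the pathway off. Ccl2 read -1.74 with shGFP in LSZ2 against -1.13 and -1.09, and in LSZ4 0.83 and 0.78 against 1.23 and 0.98. The inhibitor gene Nfkbia differed by 0.19, and by -0.06 without LSZ4 shLacZ replicate 1. Relative to all genes the median of the list was -0.12, and -0.17 without LSZ4 shLacZ replicate 1.

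Of 34 p53 targets 5 (14.7%) were lower without overlap and 2 (5.88%) higher, beside 6.41% and 8.64% of all genes. The counts were also 5 and 2 without LSZ4 shLacZ replicate 1, beside 9.69% and 9.6% of all genes. The death genes Pmaip1 (-0.81) and Apaf1 (-0.65), the receptor gene Eda2r (-1.30), the repair gene Ercc5 (-0.53) and the stress gene Sesn1 (-0.37) were the lower ones, and Plk3 (0.52) and Gtse1 (0.35) the higher ones. Eda2r was well above background on 1 of 3 shGFP arrays. Pmaip1, Apaf1, Plk3 and Gtse1 read -0.42, -0.41, 0.27 and 0.14 without LSZ4 shLacZ replicate 1. Of 30 interferon-stimulated genes 3 (10.0%) were lower, near the 6.41% of all genes, and none higher. The 3 were Trim21 (-0.67), Parp9 (-0.63) and Dtx3l (-0.23). Without LSZ4 shLacZ replicate 1, 4 were lower, beside 9.69% of all genes. Parp9 read -0.34 without that array. Of 27 hypoxia genes 4 (14.8%) were lower and 2 (7.41%) higher, beside 6.41% and 8.64% of all genes. Without LSZ4 shLacZ replicate 1, 6 were lower and 2 higher, beside 9.69% and 9.6%. Among the lower was the mitophagy gene Bnip3, which read 4.55 with shGFP in LSZ2 against 5.18 and 5.16. In LSZ4 it read 4.01 on both shGFP arrays against 4.91 and 4.40.

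In LSZ4 25 of the 33 lists had a median above the 0.39 of all genes, and in LSZ2 6 had one above -0.03. Histone genes had the highest median in LSZ4, 0.84, with -0.13 in LSZ2 and 0.10 without LSZ4 shLacZ replicate 1. Of 72 ribosomal protein genes 70 had a difference above 0, with a median of 0.42 against 0.22 for all genes. That median was 0.71 in LSZ4, -0.01 in LSZ2 and 0.16 without LSZ4 shLacZ replicate 1. Of 47 nuclear-encoded genes of oxidative phosphorylation 46 lay above 0, with medians of 0.72 in LSZ4 and -0.14 in LSZ2. Of 35 genes of the ATF4 response 30 did, with medians of 0.72 and -0.10. These counts stand beside a median of all genes that was itself above 0, at 0.22. Also above 0 were 41 of 51 genes of autophagy and lysosome, 29 of 35 NRF2 targets and 10 of 10 immune markers. Of 35 genes of mitosis 15 were. Without LSZ4 shLacZ replicate 1 the medians of oxidative phosphorylation and the ATF4 response were 0.11 and 0.18, against 0.05 for all genes. Genes of mitosis had the lowest median, -0.18, which was -0.22 in LSZ4, 0.00 in LSZ2 and -0.07 without that array. No difference between the lines was called for any gene of these lists.

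**Figure D3:**
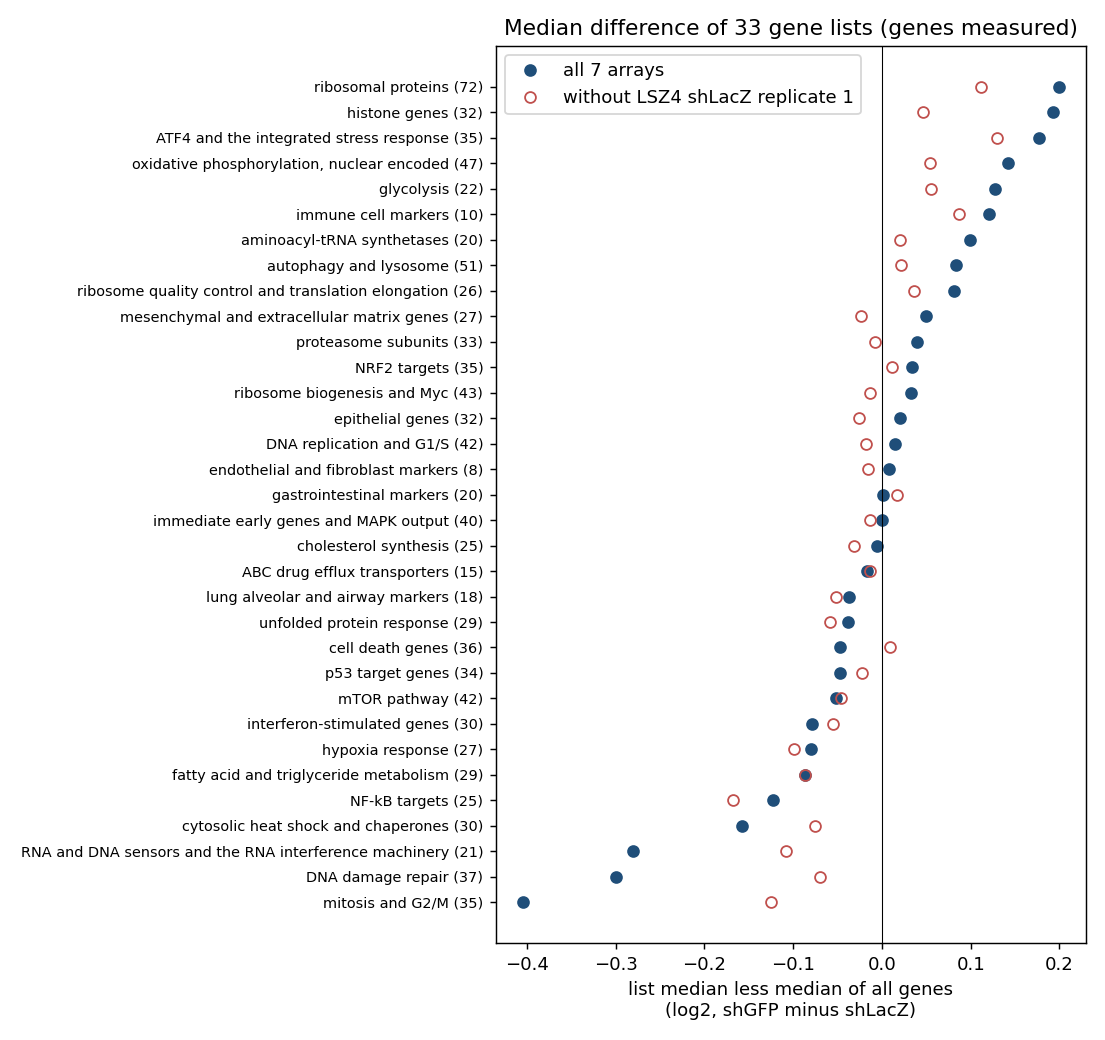
Median difference of each of 33 gene lists (shGFP minus shLacZ, log2) less the median of all genes, with filled points for all 7 arrays, open points without LSZ4 shLacZ replicate 1 and the number of genes measured in brackets. The lowest filled point, mitosis at -0.40, moves to -0.12 without that array, and the highest, ribosomal proteins at 0.20, to 0.11.

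The base composition of the probes moved with these differences. Over 5 bins of the share of G and C bases, from 15% to 35% up to 51.7% to 91.7%, the median LSZ4 difference went from -0.09 through 0.20, 0.41 and 0.59 to 0.62. The median of shLacZ replicate 1 less replicate 2 in LSZ4, which share a hairpin, went from -0.10 to -0.70 over the same bins. Against replicate 2 alone the LSZ4 difference went from -0.07 to 0.26, and in LSZ2 the difference stayed between -0.04 and 0.01. Spike-in control probes read 0.46 higher with shGFP after scaling (median of 10 probes, 1.06 in LSZ4 and -0.43 in LSZ2). Before scaling the value was 0.01, made up of 0.35 in LSZ4 and -0.51 in LSZ2. The part of base composition and of scaling in the gene differences was not tested beyond refits with the base composition trend removed or with another scaling. No refit was made without scaling.

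**Figure D4:**
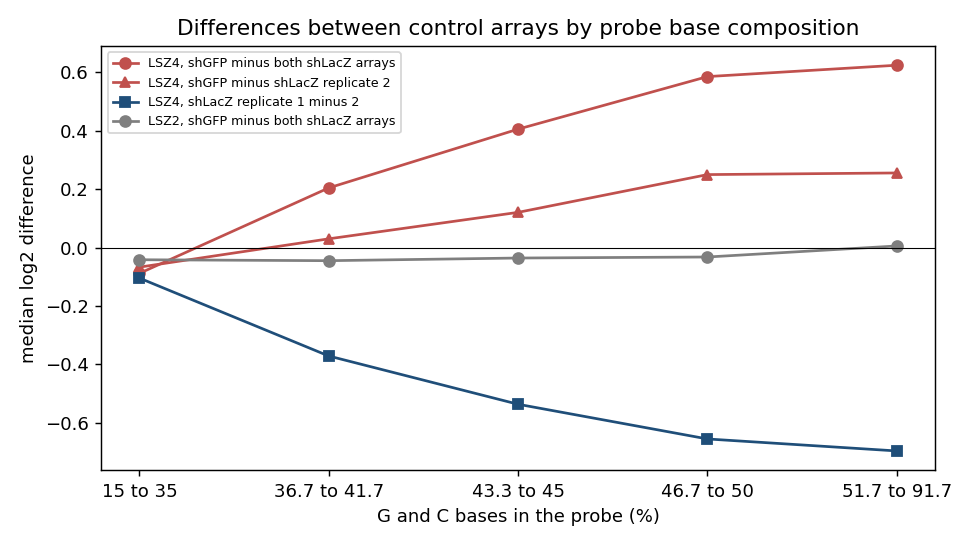
Median log2 difference of genes in 5 bins of the percentage of G and C bases in the probe, for shGFP less both shLacZ arrays in LSZ4 and LSZ2, for shGFP less shLacZ replicate 2 in LSZ4, and for shLacZ replicate 1 less replicate 2 in LSZ4. The LSZ4 difference rises to 0.62 and the difference between the LSZ4 shLacZ replicates falls to -0.70, whereas LSZ2 stays near 0.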

How the data were processed

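Total RNA (200 ng) was amplified and labelled with Cy3 per the labels. The deposited scanner files hold spot intensity values extracted by the authors per the file headers (Feature Extraction 10.7.3.1, background subtracted), and the deposited value table holds log2 values, which here differ from the scanner values by a constant per probe (within 0.05 for 99.6% of 55653 probes). Coordinates are mm9. Control and outlier-flagged spots were dropped, spots averaged and log2 values reduced by the array's 75th percentile. Probes well above background on at least 3 of 7 arrays and missing on at most 1 were kept (30280), the brightest standing for its gene. Symbols were updated through RefSeq accessions for 26576 of 55681 probes. limma 3.58.1 in R 4.3.3 fitted line and hairpin, and group means within lines, with a threshold of 0.05, and was tested on simulated data. Python 3.11.15, pandas 2.3.3 and matplotlib 3.10.9 made summaries and plots.

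Named genes were the 12 with the smallest unadjusted p in each direction among genes without overlap in either line and well above background on every array of the brighter hairpin (the rule takes the largest passing changes first, and none passed), 2 per list, passing genes of the within-line comparisons, and 14 fixed genes, not all of which are reported here. Features without a symbol, and list members without overlap, were named after their values were seen. Members and lists were chosen with earlier results of these data known. The labels do not say that replicates are separate cultures, so each p-value reflects spread that may be technical, and the shGFP numbers were taken to mark replicates. The number of arrays limits the precision. The main fit did not pair arrays by number. Deviations of same-numbered arrays from their group means correlated at 0.04, 0.26 and 0.42, the last between the shLacZ groups of the 2 lines. Whether same-numbered arrays were handled together was not tested. No promoter motif was searched, since no list had a called gene.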

Additional observations from a re-analysis of the deposited data

Results flagged for a closer look

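The probe of the chromosome 19 noncoding region (38392796 to 38398771, mm9) passed the test for a difference between the lines. The LSZ4 difference less the LSZ2 difference was -5.86 on the log2 scale (SE 0.61, limma adjusted p = 0.0248), and the LSZ2 side rests on the single shGFP array of that line, which the test cannot tell apart from the hairpin. The call was lost under 5 of the alternatives, as given in the part on processing.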

How the results depend on the processing

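The count of 0 genes between the hairpins held under quantile, median and restricted percentile scaling, normexp, the authors' value table, no filter, a signal on all arrays required, probes averaged per gene, no trend in the prior and removal of the trend on probe base composition. It became 1 with the replicate block and 22 with 1 mean for each line and hairpin (5 of the 22 with an ordinary symbol), and ran from 0 to 6 with single arrays left out, 2 without LSZ2 shGFP replicate 1 and 6 without LSZ4 shLacZ replicate 1. It was also 6 without that array and with the base composition trend removed. With array weights it was 14469, 8924 of them higher. Those weights were 35597 for LSZ4 shLacZ replicate 2, 28.6 for LSZ2 shLacZ replicate 1, 0.51 and 0.27 for the LSZ4 shGFP arrays, 0.04 and 0.02 for LSZ2 shLacZ replicate 2 and LSZ2 shGFP, and 0.0084 for LSZ4 shLacZ replicate 1, so that this fit rests in effect on single arrays and its calls support nothing here. Array weights, both fits on base composition and the recount of genes without overlap (3275, and 4197 without LSZ4 shLacZ replicate 1) were added after seeing the data.

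The 3 calls within LSZ4 became 0 under quantile scaling, the restricted percentile, normexp, the authors' table, both filters, no trend in the prior and the base composition fit, 14 with median scaling, 7728 with the replicate block, 2420 with base composition removed and LSZ4 shLacZ replicate 1 left out, and 14248 with array weights, and ran from 2 to 16467 with single arrays left out. The 1 call within LSZ2 became 0 with the authors' table, 5 without a filter, 30 with the replicate block and 256 with base composition removed and that array left out, and ran from 4 to 271. The 1 call for the difference between lines became 0 under quantile scaling, the restricted percentile, the authors' table, no trend and the base composition fit, 3 without a filter, 145 with the replicate block and 2141 with base composition removed and that array left out, and ran from 2 to 13702. Within and between the lines, the replicate block and the fits without an LSZ4 array used 1 pooled spread for all genes. Their counts are not read as hairpin differences. The cause of these changes was not tested. The fit with 1 mean for each line and hairpin leaves no spread within lines.

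Of 96 named genes refitted under 21 settings, none was called outside the array weights (lowest adjusted p = 0.0540), which called 91. Direction turned for Cxcl5 with array weights (0.18), Fabp1 and Ifih1 with normexp (0.094 and 0.20), Fbln2 with quantile scaling (-0.0079), Isg15 with base composition removed (-0.19, and -0.064 also without LSZ4 shLacZ replicate 1) and Trp53 in the latter fit (-0.061). List medians relative to all genes moved by more than the replicate spread in 43 of 693 refits. They stayed below 0 in every refit for mitosis, DNA repair, NF-kB targets, chaperones and RNA sensors. For the ATF4 response, histone genes and autophagy and lysosome they stayed above 0. None of these refits was of LSZ2 alone. Within LSZ2 the first 5 lists read 0.03, -0.01, -0.17, -0.01 and 0.0006 relative to all genes, and the last 3 read -0.07, -0.10 and -0.15.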
